A study of Mus with 6 samples.

Results

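Mitosis needs a short list of machines that most resting cells keep at a low level. Kinetochores assemble on centromeres and hold the spindle microtubules, the spindle checkpoint delays anaphase until every chromosome is held, condensins compact the chromosomes, augmin branches the spindle microtubules, and motors, kinases and midzone proteins carry the cell through anaphase and cytokinesis. Articular chondrocytes divide little in the adult joint but enter the cell cycle again in culture. The genes described here were chosen by name from these machines, as the centromere proteins (Cenp), condensin (Ncap, Smc2, Smc4), the Ska and Haus families, named kinetochore, checkpoint and kinase genes, and the mitotic kinesins. Of 78 protein-coding genes with such names in the reference annotation, 34 had a row in 2 long stretches of the deposited table, in order of Ensembl identifier, where labels and counts stand on the same row. These stretches hold 6621 rows. These 34 genes are the members, out of 11659 genes in the table. A further 18 genes had rows outside these stretches, where the labels do not line up, and the remaining 26 were not analysed here, among them Plk1, Kif11, Aurkb and Anln.

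RNA was sequenced from knee cartilage chondrocytes of C57BL/6J mice 12 weeks of age, with 3 wild-type (WT) samples and 3 from mice carrying a conditional Sirt6 knockout (Sirt6 cKO). In the study's cKO line, floxed Sirt6 is removed by Col2a1-CreERT2, a tamoxifen-dependent recombinase that acts only in cells using the Col2a1 promoter. Whether the WT mice of this experiment carried the floxed allele or received tamoxifen is not given in the sources used here. The study's methods describe first-passage cultures near confluence as the cells used in its experiments. The study speaks of chondrocytes of 3 control and 3 knockout mice, while the labels do not say whether each sample is 1 mouse, so p-values measure the spread between these samples, which may be technical in part.

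The counts summed to between 25726958 and 30156935 reads per sample, and no member had fewer than 118 reads in any sample. Levels are given in CPM, in which the counts of every library are scaled to the same total, after TMM normalization, which also corrects for library composition. Levels of single genes are compared with each other only in RPKM, which is CPM divided by summed exon length in kb. Sums and shares of groups of genes are in CPM and are not corrected for length. Sirt6 itself was at 427, 338 and 362 CPM in WT and at 36.1, 28.7 and 22.3 CPM in Sirt6 cKO samples (log2 fold change -3.69, standard error 0.21, adjusted p = 8e-06). WT replicate 1 stood apart: its log2 levels correlated across genes at 0.969 and 0.971 with those of WT replicates 2 and 3, which correlated with each other at 0.993. Where leaving this sample out changed a call of a member, the value without it is given as well. Of the chondrocyte markers that could be read, Sox9 was at 192 ± 10.9 CPM (SD, n = 3) in WT and 295 ± 68.7 in Sirt6 cKO samples, and on average Comp went from 0.674 to 7.82 CPM and Ucma from 0.172 to 8.33 CPM. Col11a1 lay between 5.94 and 7.77 CPM in WT samples and was at 112 ± 7.69 CPM (SD, n = 3) in Sirt6 cKO samples. Of the 5 readable chondrocyte genes 3, Comp, Ucma and Col11a1, were called higher, against 8.72% of all tested genes. Comp and Ucma had no more than 28 reads in any WT sample. Sox9 stayed under the fold threshold, and Col9a3 did not pass (log2 fold change -0.53, adjusted p = 0.0756). Col2a1 and Acan were not analysed here. The 9 readable genes of 11 in a synovial fibroblast list summed to 11800 to 12000 CPM in WT and to 36500 to 42100 CPM in Sirt6 cKO samples, of which Col1a1 and Col1a2 made up 10700 CPM on average in WT and 36600 CPM in Sirt6 cKO samples. Of these 9 genes 5 were called higher (Dcn, Lum, Pdgfra, Col1a1 and Col1a2), against 8.72% of all tested genes, Cd34 passed the adjusted p below 0 under the fold threshold (log2 fold change -0.54, adjusted p = 0.00536), and Thy1, Pdpn and Has1 did not pass. The 5 readable genes of 19 in the chondrocyte list summed to 199 to 217 CPM in WT and to 393 to 492 CPM in Sirt6 cKO samples. Sox9, which was not called, made up 192 CPM of this on average in WT and 295 CPM in Sirt6 cKO samples. The readable macrophage marker, Cd68, lay between 0.205 and 1.73 CPM in all samples, the osteoblast marker Runx2 was at 47.3 to 71.2 CPM in WT and at 69.8 to 79.1 CPM in Sirt6 cKO samples, and no endothelial or lymphocyte marker could be read. The chondrocyte and fibroblast sums were thus higher in the samples in which the members were lower, and the part of cell makeup in the results below was not tested.

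Most of the 34 members were lower in the Sirt6 cKO samples, with at least 1 member called lower in each of the 8 role groups and 9 members not called. The summed level of the 34 members was 3090, 3775 and 3671 CPM in the 3 WT samples and 1161, 1185 and 1092 CPM in the 3 Sirt6 cKO samples, so that the genotypes did not overlap and the Sirt6 cKO mean was 32.6% of the WT mean. By edgeR's quasi-likelihood test over all genes, with Benjamini-Hochberg adjustment, 25 of the 34 members were lower at an adjusted p under 0.05 and a fold change under 0.5. The same call was made for 7.15% of all 11246 tested genes, and for 7.57% of those in the 2 stretches. A stricter test against a fold of 2 (glmTreat) called 15, without Cenpf, Cenpl, Haus8, Kif14, Kif15, Kif18a, Knl1, Ncapg2, Nusap1 and Ttk. No member was higher (0 of 34, and 0 at an unadjusted p under 0.05), against 8.72% of all tested genes called higher. With no fold threshold, 28 members were lower, against 24.3% of all tested genes. The log2 fold change was below 0 for all 34 members, as it was for 49.9% of all tested genes, and the median over members was -1.55, against 0.00 over all tested genes. In 26 members all 3 Sirt6 cKO samples lay below all 3 WT samples, which held for 30.6% of all tested genes. The members lie on 13 chromosomes, with 8 of them on chromosome 2. In bulk RNA, fewer dividing cells and less of these transcripts in each cell cannot be told apart.

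**Figure D1:**
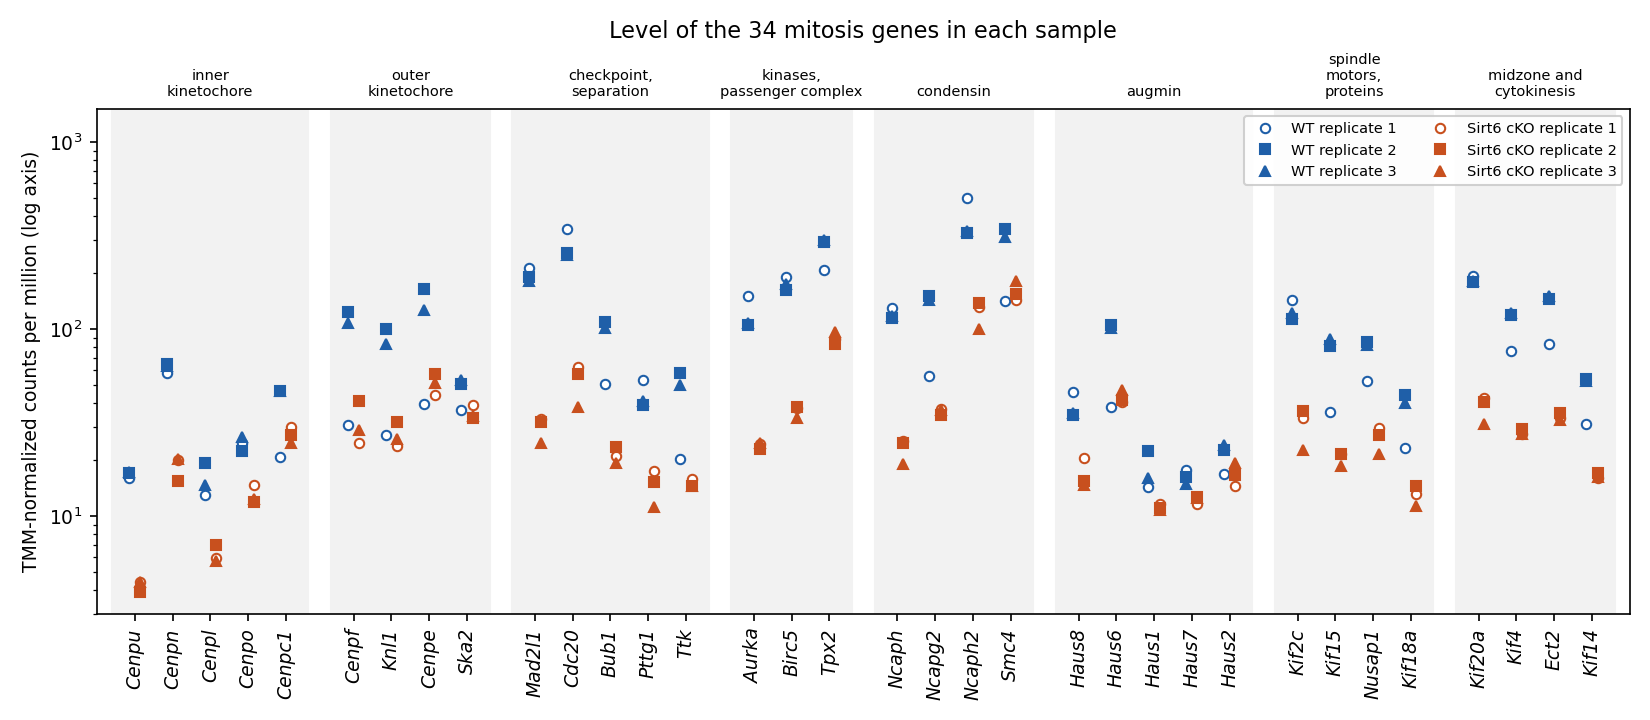
TMM-normalized CPM (log axis) of each of the 34 members in the 3 WT samples (blue) and the 3 Sirt6 cKO samples (orange), by role group; each point is 1 sample. The Sirt6 cKO points lie below all WT points in 26 members, and in the other 8 only WT replicate 1 (open blue circles) is not above all of them.

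The spindle checkpoint and the proteins that release sister chromatids had the lowest remaining level of the 8 groups, at 20.5% of the WT sum, and all 5 members were lower. Mad2l1, which encodes the checkpoint protein MAD2 that holds back anaphase (ENSMUSG00000029910, chromosome 6 from 66535390 to 66541033), was at 213, 190.2 and 180.0 CPM in WT and at 32.9, 31.7 and 24.5 CPM in Sirt6 cKO samples. The change of -2.71 (log2, standard error 0.16, adjusted p = 9.35e-06) was the largest decrease among the members. Cdc20, the activator of the anaphase-promoting complex that MAD2 inhibits (ENSMUSG00000006398, chromosome 4 from 118432901 to 118437352), was at 341, 254 and 247 CPM in WT and at 62.5, 57.2 and 38.1 CPM in Sirt6 cKO samples. A checkpoint inhibitor and its target thus both fell, Cdc20 by 2.42 on the log2 scale (standard error 0.22, adjusted p = 7.42e-05). Per length, Cdc20 had the highest WT level of the members, at 150.4 RPKM, and stood at 28.2 RPKM in Sirt6 cKO samples. Pttg1, which encodes securin, the inhibitor of the protease that cuts cohesin, was at 53.5, 39.4 and 41.0 CPM in WT and at 17.5, 15.2 and 11.2 CPM in Sirt6 cKO samples (log2 fold change -1.61, adjusted p = 0.000422). The checkpoint kinases Bub1 and Ttk had log2 fold changes of -2.03 and -1.53 (adjusted p = 0.00055 and 0.00626). Bub1 was at 50.7, 109.5 and 101 CPM in WT and at 20.9, 23.5 and 19.3 CPM in Sirt6 cKO samples, and Ttk was at 20.1, 58.1 and 50.3 CPM in WT and at 15.8, 14.4 and 14.4 CPM in Sirt6 cKO samples. For both kinases WT replicate 1 was far below the other WT samples and still above every Sirt6 cKO sample. Without it the log2 fold changes were -2.31 for Bub1 and -1.86 for Ttk.

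The mitotic kinases and the chromosomal passenger complex were at 26.6% of the WT sum, and all 3 members were lower. Birc5, which encodes survivin, the passenger subunit that brings Aurora B to centromeres (ENSMUSG00000017716, chromosome 11 from 117849251 to 117855743), was at 190.3, 163 and 173 CPM in WT and at 37.8, 38.1 and 33.5 CPM in Sirt6 cKO samples. The replicates of each genotype lay close together, and Birc5 fell by 2.27 on the log2 scale (standard error 0.14, adjusted p = 9.35e-06). Aurka, the kinase of spindle poles, was at 150.4, 106 and 108 CPM in WT and at 24.4, 22.7 and 24.6 CPM in Sirt6 cKO samples (log2 fold change -2.34, adjusted p = 2.4e-05). Tpx2, which binds and activates Aurora A on the spindle, was at 208, 293 and 298 CPM in WT and at 88.1, 82.8 and 96.9 CPM in Sirt6 cKO samples. The change of -1.58 (log2, standard error 0.17, adjusted p = 0.000172) was smaller than that of the kinase it activates, and the difference between them was not tested.

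The midzone and cytokinesis genes were at 25.2% of the WT sum, and all 4 were lower. Kif20a, a kinesin of the spindle midzone (ENSMUSG00000003779), was at 191, 179 and 181 CPM in WT and at 42.9, 40.7 and 30.9 CPM in Sirt6 cKO samples (log2 fold change -2.27, standard error 0.16, adjusted p = 1.77e-05). Kif4, a chromokinesin that also shapes the midzone, was at 75.9, 119 and 121 CPM in WT and at 27.5, 29.2 and 27.3 CPM in Sirt6 cKO samples (log2 fold change -1.91, adjusted p = 0.000124). Ect2, the exchange factor that switches on RhoA at the cleavage furrow, was at 83.2, 145 and 149.9 CPM in WT and between 32.5 and 35.8 CPM in Sirt6 cKO samples (log2 fold change -1.89, adjusted p = 0.000287). In both genes WT replicate 1 was the lowest WT sample but did not reach the Sirt6 cKO samples. Kif14, a kinesin of the midbody, had the smallest change of this group, with 31.1, 53.9 and 53.0 CPM in WT and 16.0, 17.1 and 16.1 CPM in Sirt6 cKO samples (log2 fold change -1.49, adjusted p = 0.000824).

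Spindle motors and spindle proteins were at 29.7% of the WT sum, and all 4 were lower. Kif2c, a kinesin that takes microtubules apart at their ends, was at 143, 114 and 121 CPM in WT and at 33.5, 36.4 and 22.4 CPM in Sirt6 cKO samples (log2 fold change -2.04, adjusted p = 0.000111). Kif15, which helps to push spindle poles apart, Nusap1, a microtubule bundling protein, and Kif18a, which dampens chromosome oscillations, had log2 fold changes of -1.74, -1.50 and -1.47 (adjusted p = 0.00197, 0.000759 and 0.00172). Nusap1 was at 52.8, 85.5 and 82.1 CPM in WT and at 29.6, 27.0 and 21.5 CPM in Sirt6 cKO samples. In each of these 3 genes WT replicate 1 was the lowest WT sample and lay above all Sirt6 cKO samples.

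Condensin was at 38.5% of the WT sum, and 3 of 4 subunits were called lower. Ncaph, the kleisin that closes the ring of condensin I (ENSMUSG00000034906, chromosome 2 from 127103809 to 127133954), was at 129, 115 and 117 CPM in WT and at 25.3, 24.6 and 18.9 CPM in Sirt6 cKO samples. No sample of one genotype reached the range of the other, and Ncaph fell by 2.39 on the log2 scale (standard error 0.16, adjusted p = 1.39e-05). Ncaph2, the corresponding kleisin of condensin II, was at 502, 326 and 334 CPM in WT and at 132, 138 and 100.3 CPM in Sirt6 cKO samples (log2 fold change -1.65, adjusted p = 0.000393). WT replicate 1 was the highest sample for Ncaph2 and the lowest WT sample for Ncapg2, a further condensin II subunit, which was at 55.8, 149 and 143 CPM in WT and at 37.6, 34.8 and 36.8 CPM in Sirt6 cKO samples (log2 fold change -1.68, adjusted p = 0.00338). Smc4, the ATPase shared by both condensins, was at 141, 342 and 311 CPM in WT and at 144, 154 and 182 CPM in Sirt6 cKO samples. WT replicate 1 lay below the Sirt6 cKO samples here, and Smc4 did not pass the test (log2 fold change -0.73, adjusted p = 0.067). It passed the adjusted p, under the fold threshold, with the replicate number as a block (0.0187), in DESeq2 (0.029) and in edgeR's likelihood ratio test (0.0354). Without WT replicate 1 Smc4 passed both thresholds (log2 fold change -1.03, adjusted p = 0.000151).

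Inner kinetochore genes, whose products stay on centromeric chromatin through the cell cycle, were at 44.0% of the WT sum, and 3 of 5 were called lower. Cenpu was at 15.9, 16.9 and 17.3 CPM in WT and at 4.45, 3.92 and 4.42 CPM in Sirt6 cKO samples (log2 fold change -1.97, standard error 0.16, adjusted p = 4.03e-05). The 6 samples formed 2 tight groups, and per length Cenpu had the lowest Sirt6 cKO level of the members, at 1.18 RPKM. Cenpn and Cenpl, whose proteins pair to form a link to the centromeric nucleosome, had log2 fold changes of -1.75 (adjusted p = 5.98e-05) and -1.32 (adjusted p = 0.00101). Cenpn was at 58.1, 65.4 and 63.1 CPM in WT and at 19.9, 15.3 and 20.1 CPM in Sirt6 cKO samples. Cenpo, a partner of Cenpu in one subcomplex, was at 24.7, 22.2 and 26.5 CPM in WT and at 14.7, 11.9 and 12.4 CPM in Sirt6 cKO samples, and passed the adjusted p but not the fold threshold (log2 fold change -0.91, adjusted p = 0.00189). Without Sirt6 cKO replicate 1 it was called lower (log2 fold change -1.01). Cenpc1, which encodes CENP-C, the scaffold between centromere and outer kinetochore, was at 20.7, 46.6 and 46.7 CPM in WT and at 29.9, 27.1 and 24.4 CPM in Sirt6 cKO samples. WT replicate 1 lay below all Sirt6 cKO samples and the other WT samples lay above them, and Cenpc1 did not pass (log2 fold change -0.49, adjusted p = 0.184). Without that sample the log2 fold change was -0.78 (adjusted p = 0.000647).

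Outer kinetochore genes were the group in which the summed level of the genotypes overlapped, with 134.5, 437 and 370.1 CPM in WT and 132, 164 and 140 CPM in Sirt6 cKO samples. Cenpf, a large protein of the outer kinetochore corona, was at 30.6, 123 and 107 CPM in WT and at 24.6, 41.0 and 28.7 CPM in Sirt6 cKO samples. Knl1, the platform on which BUB1 docks, was at 27.0, 100.2 and 83.6 CPM in WT and at 23.8, 31.7 and 25.7 CPM in Sirt6 cKO samples. In both genes WT replicates 2 and 3 lay far above the Sirt6 cKO samples and WT replicate 1 lay among them. Both were called lower, with log2 fold changes of -1.47 (standard error 0.44, adjusted p = 0.0243) and -1.38 (standard error 0.40, adjusted p = 0.0213). The standard errors were the largest among the called members, and either call was lost when WT replicate 2, WT replicate 3, Sirt6 cKO replicate 1 or Sirt6 cKO replicate 3 was left out. Cenpe, a kinesin that moves chromosomes to the spindle equator, was at 39.9, 163 and 126 CPM in WT and at 44.2, 57.6 and 51.3 CPM in Sirt6 cKO samples and did not pass (log2 fold change -1.10, adjusted p = 0.0546). With the replicate number as a block Cenpe passed the adjusted p (0.0118) with a log2 fold change of -0.90, and it was called lower by DESeq2 and edgeR's likelihood ratio test. Without WT replicate 1 the values were -1.87 for Cenpf, -1.76 for Knl1 and -1.50 for Cenpe, each called lower. Ska2, a subunit of the Ska complex that tracks microtubule ends, did not pass with all samples (log2 fold change -0.41, adjusted p = 0.0765) and was past the adjusted p but under the fold threshold without WT replicate 1 (-0.55, adjusted p = 0.00296).

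Augmin kept the largest share of its WT level among the 8 groups, 57.2%, and 1 of its 5 members, Haus8, was called lower. Haus8 was at 45.8, 34.7 and 35.3 CPM in WT and at 20.4, 15.4 and 14.7 CPM in Sirt6 cKO samples (log2 fold change -1.20, standard error 0.18, adjusted p = 0.00119). Haus6 and Haus1 passed the adjusted p under the fold threshold, with log2 fold changes of -0.92 (adjusted p = 0.0451) and -0.65 (adjusted p = 0.0226). Haus7 and Haus2 did not pass, with log2 fold changes of -0.40 (adjusted p = 0.0547) and -0.34 (adjusted p = 0.167). Without WT replicate 1 Haus2 passed the adjusted p under the fold threshold (log2 fold change -0.47, adjusted p = 0.0242) and Haus7 did not pass (-0.33, adjusted p = 0.06). With all samples Haus2 was the member nearest to no difference, at 16.9, 22.7 and 23.9 CPM in WT and at 14.4, 16.6 and 19.2 CPM in Sirt6 cKO samples. Haus6 was at 38.1, 105 and 101 CPM in WT and at 40.6, 41.5 and 46.9 CPM in Sirt6 cKO samples. Its WT replicate 1 lay below every Sirt6 cKO sample, and without this sample Haus6 was called lower (log2 fold change -1.26, adjusted p = 2.51e-05).

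**Figure D2:**
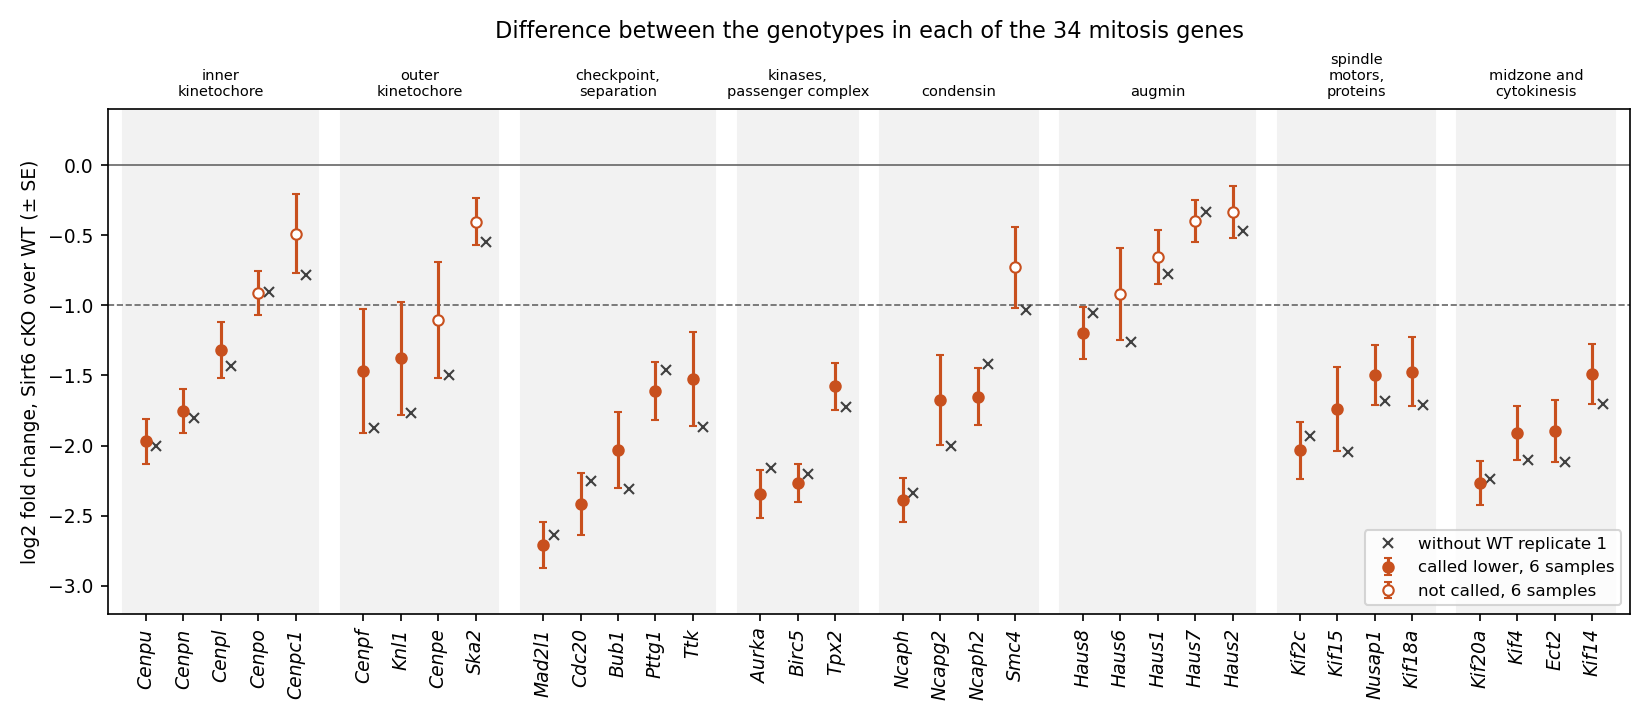
Log2 fold change of Sirt6 cKO over WT with its standard error for each of the 34 members from the edgeR fit on 6 samples; filled points are called lower, open points are not, and crosses give the fit without WT replicate 1. All points lie below 0, from -2.71 for Mad2l1 to -0.34 for Haus2, and the dashed line marks the fold threshold.

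The makeup of the mitotic transcripts was also read within each sample, where library scaling has no effect. Of the summed CPM of the 34 members, augmin took 4.29% to 5.31% in WT and 8.21% to 9.54% in Sirt6 cKO samples. Checkpoint and separation genes took 16.9% to 21.9% in WT and 9.85% to 12.9% in Sirt6 cKO samples, and midzone and cytokinesis genes took 12.3% to 13.7% in WT and 9.78% to 10.4% in Sirt6 cKO samples. The genotypes did not overlap in these 3 shares, nor in those of kinases, condensin and inner kinetochore, and they did overlap in those of outer kinetochore and spindle motors. These shares are a description and were not tested. Across the 34 members, the log2 fold change was related to the mean WT level in RPKM at a Spearman's rho of -0.617. This is a description over genes that share the same 6 libraries, and the WT samples enter both measures.

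Within the WT group the members did not move together. WT replicate 1 was the lowest of the 3 WT samples in 22 members and the highest in 11. The median log2 ratio of WT replicate 1 to the mean of the other WT samples was -0.479 over the members and 0.071 over all tested genes. The ratio fell with the summed exon length of the gene, at a Spearman's rho of -0.561 over the 34 members and of -0.236 over all 11246 tested genes. In the 17 members with exons of up to 4307 bases the median ratio was 0.087, and in the 17 longer members it was -0.882. Cenpf, the longest member with 11353 bases, had a ratio of -1.91. Knl1 and Cenpe, with 8542 and 7813 bases, had ratios of -1.77 and -1.86, but Cenpc1 and Ttk, with 3173 and 2904 bases, also had ratios of -1.17 and -1.43. RNA quality was not given in the sources used here, and the part of RNA quality, library preparation or culture in this sample was not tested. Without this sample the estimate moved farther from 0 in 22 members and nearer to 0 in 12, among them Ncaph2 (-1.42), Aurka (-2.16) and Cdc20 (-2.25). In that fit 28 members were called lower (the 25 and Cenpe, Haus6 and Smc4), against 6.5% of all tested genes, the median log2 fold change was -1.75, 33 passed the adjusted p, and no member had overlapping genotypes. Against WT replicates 2 and 3 alone, the Sirt6 cKO level was 20.9% for checkpoint and separation, 23.2% for midzone and cytokinesis, 26.2% for kinases, 27.5% for spindle motors, 35.9% for outer kinetochore, 37.2% for condensin, 40.8% for inner kinetochore and 51.0% for augmin genes, and 30.8% for all members. When the trend with exon length was removed from every sample, a setting chosen after the data were seen, 27 members were called lower (the 25 and Cenpe and Cenpo).

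In the Sirt6 cKO group replicate 3 was the lowest in 19 of 34 members and was also the sample with the least Sirt6, but its median log2 ratio to the other Sirt6 cKO samples was small, at -0.11.

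**Figure D3:**
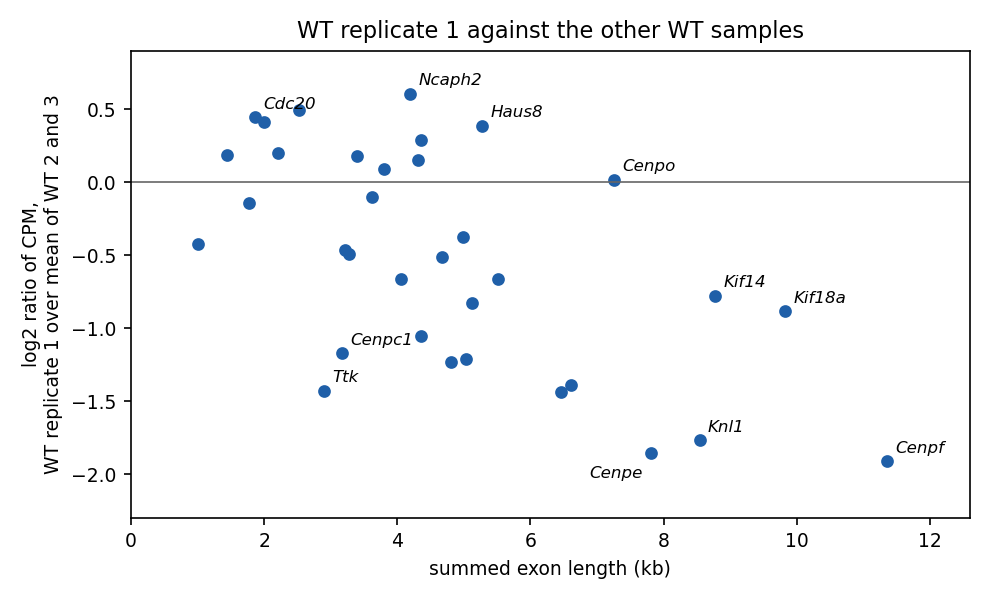
Log2 ratio of the CPM in WT replicate 1 to the mean of WT replicates 2 and 3 (vertical axis) against summed exon length in kb (horizontal axis), with 1 point for each of the 34 members. Ratios reach 0.605 for Ncaph2 and fall to -1.91 for Cenpf, the longest gene.

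Further genes of mitosis were read from 7 lists written by role, of which 60 of 122 genes had a row in the same stretches of the table. In all, 22 of the 60 were called lower, against 7.15% of all tested genes, and 0 higher, against 8.72%. With no fold threshold 35 were lower, against 24.3% of all tested genes, and 3 were higher, against 22.5%. Without WT replicate 1, 28 of the 60 were called lower, against 6.5% of all tested genes, and 0 higher. With no fold threshold, Cdc16 and Mau2 joined Anapc4, Anapc16 and Rbl2 above 0 in that fit (adjusted p = 0.0087 and 0.0219). Stag1, Stag2, Tubgcp4, Cep135, Ckap5 and Kpna2 joined the genes below 0. The cyclin B-CDK1 and mitotic entry list had 7 of 7 genes lower, with a median log2 fold change of -1.84. Ccnb1 and Ccnb2, the B cyclins that start mitosis, had log2 fold changes of -2.08 (adjusted p = 3.25e-05) and -2.03 (adjusted p = 9.14e-05). Ccna2, the cyclin that acts in S and G2 phase, was at 246, 277 and 273 CPM in WT and at 63.4, 57.8 and 49.5 CPM in Sirt6 cKO samples (log2 fold change -2.22, adjusted p = 1.26e-05).

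The list of Mis12, Rod-Zwilch and centromere loading genes, which complete the kinetochore, had 3 of 5 genes lower. Dsn1, a subunit of the Mis12 complex, was at 52.0, 52.5 and 55.2 CPM in WT and at 12.1, 11.5 and 11.1 CPM in Sirt6 cKO samples (log2 fold change -2.20, adjusted p = 9.35e-06). Mis12 itself, in the same complex, passed the adjusted p alone (log2 fold change -0.79, adjusted p = 0.00602). Among proliferation and spindle-associated genes 3 of 6 were lower, among them Ckap2, a spindle microtubule protein (log2 fold change -2.02, adjusted p = 5.83e-05). Depdc1a in this list fell under the fold threshold without WT replicate 2, WT replicate 3 or Sirt6 cKO replicate 3, with log2 fold changes of -0.80, -0.94 and -0.92, and with the replicate number as a block (-0.97). Mki67, Top2a, Cdk1 and Foxm1 were not analysed here.

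In 3 further lists 1 gene each was called lower with all 6 samples, or 8.33% to 12.5% of a list, near the 7.15% of all tested genes. Of 12 genes of the anaphase-promoting complex list 1 was lower, Anapc15 (log2 fold change -1.51, adjusted p = 0.000818). With no fold threshold 6 of the 12 were lower, against 24.3% of all tested genes. In the same reading 2, Anapc4 and Anapc16, were higher (log2 fold changes 0.52 and 0.72), against 22.5% of all tested genes. Cdc20, the member that activates this complex, lay at -2.42 beside a median of -0.43 over this list. Of 8 genes of the cohesin list 1 was lower, Sgo2a, the protector of centromeric cohesin (log2 fold change -1.61, adjusted p = 0.00991, and 0.0533 without Sirt6 cKO replicate 3), and the median was 0.01. Of 10 gamma-tubulin and centriole genes 1 was lower, Stil, which is needed to build centrioles (log2 fold change -1.04, adjusted p = 0.0104, and -0.76 without WT replicate 2, under the fold threshold, as it also was without Sirt6 cKO replicate 1 or 3 and, at -0.99, with the replicate number as a block), and the list median was -0.76. Tubgcp3, a subunit of the gamma-tubulin ring, passed the adjusted p under the fold threshold (log2 fold change -0.89, adjusted p = 0.000561). With the trend with exon length removed it was called lower (-1.05, adjusted p = 0.000543), as was Pcnt (-1.15, adjusted p = 0.000466). Without WT replicate 1 the anaphase-promoting complex list kept its 1 call, with a median of -0.23. In that fit 3 of 8 cohesin genes were called lower (Sgo2a with the ring subunits Smc1a and Stag1, at log2 fold changes of -1.13 and -1.10, median of the list -0.31), and 4 of 10 gamma-tubulin and centriole genes were (Stil, Sass6, Pcnt and Cep135, median -0.79 for the list), against 6.5% of all tested genes.

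Among 12 genes of DREAM and cell cycle transcription, which include factors that switch mitotic genes on and off, 6 were lower. The call of Lin54 among them was lost without WT replicate 2, WT replicate 3 or Sirt6 cKO replicate 2, where its log2 fold change lay between -0.99 and -0.93. Mybl2, which encodes B-MYB, an activator of G2 and M phase genes, was at 60.9, 47.8 and 50.7 CPM in WT and at 7.50, 5.52 and 6.75 CPM in Sirt6 cKO samples, with an estimate below that of every member (log2 fold change -3.01, standard error 0.18, adjusted p = 9.35e-06). E2f8 and E2f7, repressors of the E2F family that are themselves made in S phase, fell by 2.70 and 2.01 (adjusted p = 1.43e-05 and 2.58e-05). Rbl2, a pocket protein of resting cells, moved the other way under the fold threshold (log2 fold change 0.63, adjusted p = 0.027), while Rbl1 was lower (-1.55, adjusted p = 0.000505). E2f3 and Lin37 did not pass, at -0.03 (adjusted p = 0.919) and 0.12 (adjusted p = 0.554).

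**Figure D4:**
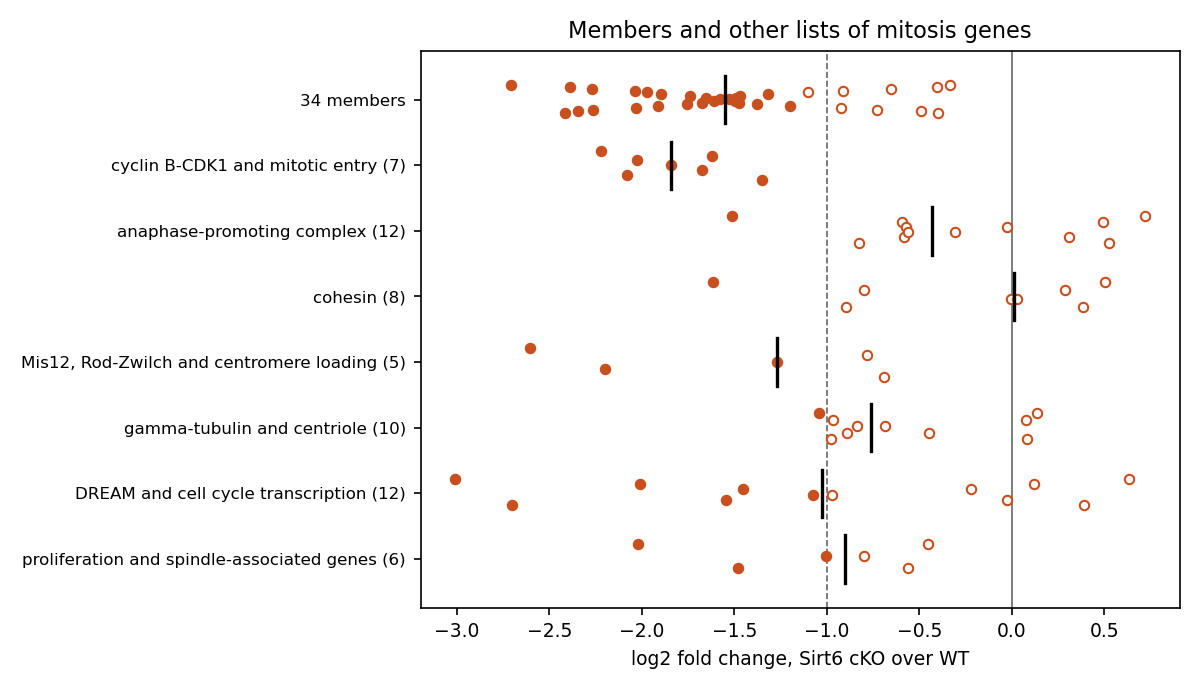
Log2 fold change of Sirt6 cKO over WT for the 34 members and for the genes of 7 other mitosis lists, with the number of genes in parentheses; filled points are called lower, open points are not, and black bars are list medians. The cyclin B-CDK1 list has a median of -1.84 and the cohesin list of 0.01 with all 6 samples, or -1.91 and -0.31 without WT replicate 1, which is not drawn.

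Because the labels of the table do not line up with the counts everywhere, the calls were also read on the rows near each member. On the members' own rows 25 of 34 were called lower, and on the rows 1 to 6 places above or below them 2 to 6 of 34 were, against 7.15% of all tested genes. The members were taken from stretches already held to line up, and with earlier results of these data known. This reading is therefore a description and no independent check of the labels. The 18 genes of the same families outside the 2 stretches differed from this. For the 8 of them between the 2 stretches, 2 of 8 labelled rows were called lower, whereas 7 of 8 rows directly below the label were, with a median log2 fold change of -1.62. That row place had the most calls of all places read within 6 rows. For the 10 genes after the second stretch no row place within 6 had more than 3 calls. Values of these 18 genes are therefore not given. The span of 11 members overlaps another protein-coding gene in the reference, namely Haus8, Haus2, Ncaph2, Cenpu, Cenpn, Cenpo, Kif20a, Kif4, Cdc20, Nusap1 and Kif18a, and Kif4 and Ska2 have a pseudogene by name. Ncaph and Kif4 overlap a long noncoding RNA gene. The study's methods describe strand-specific libraries, but the strand setting of the counting is not given in the sources used here. Reads of these neighbours may therefore be included in either count.

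**Figure D5:**
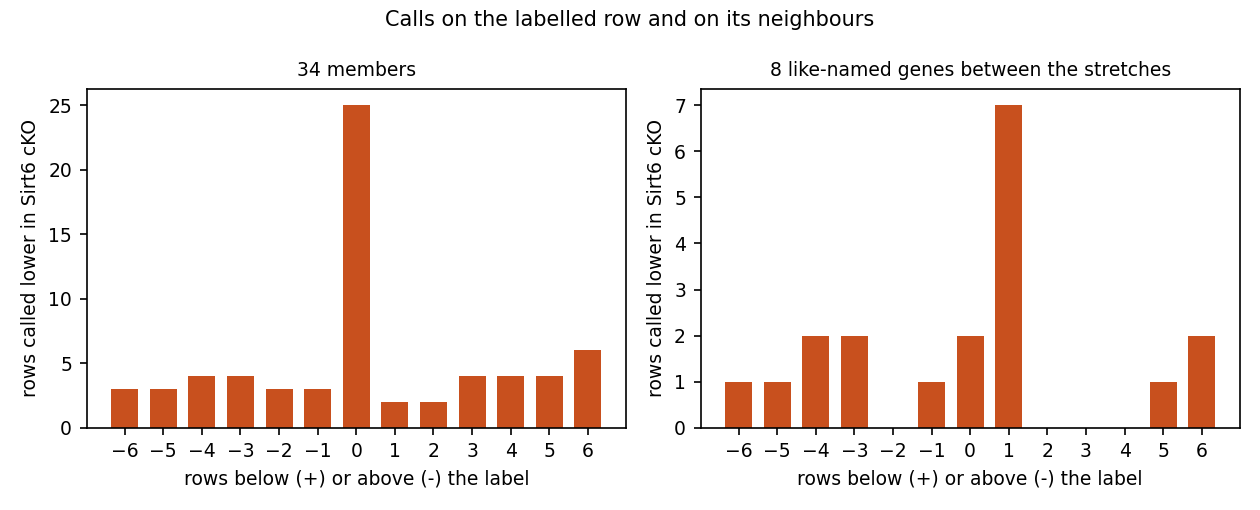
Number of rows called lower in Sirt6 cKO samples (vertical axes) on the labelled row (0) and on rows up to 6 places above (negative) or below (positive) it, for the 34 members (left) and for 8 genes of the same families between the 2 stretches of the table (right). The members peak at 25 on their own rows and the other 8 genes at 7 on the row below.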

How the data were processed

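The authors deposited raw read counts per Ensembl gene for 6 chondrocyte samples, 3 WT and 3 Sirt6 cKO, with exon positions and summed exon length. The submitters' processing notes name cutadapt, HISAT2 2.0.5 and StringTie without a role, and the human build hg19, while the gene positions lie on mouse GRCm38. The labels and the study's methods name different library kits and sequencers. The counter, annotation and strand setting are not given in the sources used here. A row took the name of the RefSeq GRCm38.p6 gene sharing 0.5 or more of their combined span, which named 10599 rows. The main test was edgeR 4.0.16 under R 4.3.3 (TMM, filterByExpr, glmQLFit and glmQLFTest, genotype as the only term), adjusted over all 11246 tested genes. A gene was called at an adjusted p under 0.05 and a fold change over 2 or under 0.5. Standard errors are the log2 fold change over the square root of the F statistic. DESeq2 1.42.0 and limma 3.58.1 served as alternatives. Named genes are Sirt6, the 3 called members with the smallest p and the member nearest to 0 in each role group, members higher in Sirt6 cKO, the gene with the smallest p in each other list and, where readable, 8 fixed cell cycle genes. Other genes are named to account for every member, or were chosen after their values were seen. The members and lists were chosen with earlier results of these data known, so no list was tested as a set. Deviations from the genotype means were weakly correlated between same-numbered samples (0.262, 0.104 and 0.136), and samples of different number were not compared. An alternative fit took the replicate number as a block. Only the numbers in the sample titles give this pairing. The other alternatives were normalization, filters, thresholds, leaving out samples and a fit on the 2 stretches.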

Additional observations from a re-analysis of the deposited data

How the results depend on the processing

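In every other setting run the log2 fold change stayed below 0 for all 34 members, and no member was called higher. RLE, upper-quartile or no composition factors, dropping the filter, asking for 10 counts in all samples, and fitting the 2 stretches of the table by themselves each gave 25 members lower. A test against a fold of 2, edgeR's glmTreat, gave 15, since it asks for more than the threshold on the estimate. DESeq2 and edgeR's likelihood ratio test gave 26, with Cenpe added, and limma-voom gave 23, without Cenpf and Knl1. An adjusted p under 0.01 gave 23 and no fold threshold gave 28. Leaving out 1 sample at a time gave 23 to 28 members lower and a median log2 fold change between -1.75 and -1.40, with 28 without WT replicate 1 and 23 without WT replicate 2, WT replicate 3 or Sirt6 cKO replicate 3. With the replicate number as a block the same 25 members were lower, and Cenpe and Smc4 passed the adjusted p under the fold threshold (adjusted p = 0.0118 and 0.0187). The pairing changed no other call of a member, and of the genes in the other lists Stil and Depdc1a fell under the fold threshold with it (log2 fold change -0.99 and -0.97). Under the fold threshold, Cdc27 and Pds5a newly passed the adjusted p above 0 with the block (0.0419 and 0.0281), and Stag1 below 0 (0.0092). With 3 samples against 3, an exact permutation test of 1 gene cannot go below p = 0.1. Every member had at least 118 reads in every sample, and the effect of lower depth was not tested.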
